A study of Mus musculus with 11 samples.

Results

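The 10 interferon-inducible GTPase genes Gbp2, Gbp3, Gbp5, Gbp7, Igtp, Irgm1, Irgm2, Iigp1, Tgtp1 and Tgtp2 were followed across lung lineages and genotypes in droplet single-cell RNA-seq of aged mouse lung. They are 10 of the 31053 genes in the count matrices, and each symbol matched exactly 1 gene. Barcodes, the tags of single droplets, were kept at 1000 to 30000 UMIs (unique molecular identifiers, each counting 1 captured RNA) with at most 14% mitochondrial UMIs, which left 69267 of 81983. No threshold was placed on the GTPases themselves. The barcodes were selected on their UMI total, mitochondrial share and marker genes, and the 10 genes were chosen by symbol with earlier results of these data known, so the tests below describe these libraries and are not independent support for the choice of genes.

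The study placed an mTert allele, a telomerase reverse transcriptase gene, at the locus of p21 (Cdkn1a, a cell-cycle inhibitor). Each library held dissociated cells of whole lung. The groups were wild type (+/+) with 1 library, p21 heterozygotes (+/-) with 3, p21 mTert (+/mTert) with 5 and p21 mTertCD (+/mTertCD) with 2, called WT, p21Het, p21mTert and p21mTertCD here. The labels give an age of 18 months, apart from 19 months for p21Het replicate 1 and 20 months for p21mTert replicate 1, and do not spell out mTertCD. Nothing in the labels says how many animals stand behind a library, so p-values measure the spread between libraries. WT has 1 library and enters no test.

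These GTPases are induced when interferon-gamma, made mainly by T and NK cells, binds its receptor. The signal reaches their promoters through short elements named GAS and through elements named ISRE, which Irf proteins bind and through which type I interferons act as well. These genes encode guanylate-binding proteins (Gbp genes) and immunity-related GTPases (Igtp, Irgm1, Irgm2, Iigp1, Tgtp1 and Tgtp2). The guanylate-binding proteins and the effector class of the immunity-related GTPases gather on the membranes of vacuoles that hold intracellular pathogens and disrupt them. Irgm1, Irgm2 and Igtp are the regulatory class that keeps the effector GTPases Iigp1, Tgtp1 and Tgtp2 off the cell's own membranes.

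In GENCODE M21 (GRCm38, the mm10 assembly) Gbp5, Gbp7, Gbp3 and Gbp2 lie in a cluster on the plus strand of chromosome 3, between 142493978 and 142638008. Irgm1 (48861968 to 48871683), Tgtp1 (48985327 to 48994172) and Tgtp2 (49057194 to 49064206) lie on the minus strand of chromosome 11. Igtp (58199556 to 58207591) and Irgm2 (58199618 to 58222782) lie further along the same chromosome on the plus strand, and their annotated spans overlap. All 50-base stretches in the last 500 bases of the longest Tgtp1 transcript also occur in Tgtp2 and the reverse, so how 3′ reads were split between these 2 genes is uncertain. The other 8 genes shared at most 3.99% of such stretches with any other gene.

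The promoter sequences are shown because they were searched for the GAS and ISRE elements named above. RefSeq promoters (GRCm38.p6), running from 250 bases before to 50 bases after the start of transcription, were searched for 9 of the 10 genes. Iigp1 was left out of this search, so the counts of members do not cover it. The ISRE core, searched on both strands as 2 copies of GAAA with 2 bases between them, was in all 9 of these against 3.44% of 32851 promoters. The GAS core TTCNNNGAA, likewise on both strands, was in 6 of 9 against 8.30%, and both were in 6 of 9 against 0.454%. Members are counted by gene and the background by promoter, and Gbp3 has a second RefSeq promoter with neither core, so its count rests on the first. In Igtp, Irgm2, Tgtp1 and Tgtp2 a GAS core is followed, 2 bases on, by an ISRE core, an arrangement searched for after these sequences were seen. That composite was found in 5 of the 32851 promoters (0.0152%), those of these 4 genes and of the predicted gene Gm12185. A match is a description of letters in a window and not evidence of binding. Each line gives the ISRE window of a gene in its direction of transcription, with GAS and ISRE cores in capitals and 4 bases on either side.
Igtp: ccatTTCTAGGAActGAAACTGAAAgctg
Irgm2: ccatTTCCAGGAActGAAACTGAAAgctg
Tgtp1: ccatTTCCAGGAAtcGAAACTGAAAccta
Tgtp2: ccatTTCCAGGAAtcGAAACCGAAAccta
Irgm1: tcaaGAAATAGAAACCGAAActga
Gbp2: ttagTTTCACTTTCactg
Gbp3: acagTTTCAGTTTCTATTTCccag
Gbp5: gtagTTTCAATTTCagtt
Gbp7: gcagTTTCAGTTTCagtt

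The composite windows lie at chr11:58199507-58199535 (plus strand, Igtp), chr11:58214898-58214926 (plus, Irgm2), chr11:48992310-48992338 (minus, Tgtp1) and chr11:49064269-49064297 (minus, Tgtp2). The Irgm1 window is chr11:48871431-48871454 (minus). On the plus strand of chromosome 3, the windows are chr3:142620600-142620617 for Gbp2, chr3:142559995-142560018 for Gbp3, chr3:142496765-142496782 for Gbp5 and chr3:142530279-142530296 for Gbp7. They start between 34 (Irgm1) and 169 (Gbp5) bases before the RefSeq start. For 5 of the 9 genes (Gbp2, Gbp5, Irgm1, Irgm2 and Tgtp1) a window overlaps the longer GENCODE span of the gene. In the 4 Gbp genes the ISRE core reads as its reverse complement, and Gbp5 and Gbp7 each hold 2 separate GAS cores as well.

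The libraries held 42038434 to 85988955 UMIs and the kept barcodes a median of 4133 to 6454 UMIs. Any 2 libraries shared 4 to 20 barcode sequences. Between 69.4% and 87.9% of kept barcodes could be assigned to a lineage by marker genes (at least 3 markers with a UMI and at least 2 more than of any other lineage), 57556 in all, and 13 lineages had enough barcodes for tests. None of the 10 GTPases is such a marker. WT, p21Het replicate 1 and p21mTert replicate 1 are the 3 libraries that the series' design text describes, and they had median mitochondrial shares of 6.30% to 6.58%, against 2.82% to 4.28% in the other 8 libraries. The library p21mTertCD replicate 1 stood apart: T cells were 41.7% of its assigned barcodes (14.5% to 29.7% elsewhere) and B cells 1.85% (14.1% to 42.9% elsewhere). For results that rest on p21mTertCD, values without this library are given beside the main ones for some genes only. The fits without it were run in all 13 lineages, so a missing value does not mean that none was computed. In these fits the p21mTertCD group has 1 library, whose spread is assumed to be like that of the other groups. As a check of the labels, Tert reached 2.00 to 3.28 UMIs per 1000000 in the p21mTert libraries and 1.91 and 2.59 in the p21mTertCD libraries, against 0.544 to 0.842 in p21Het and 1.13 in WT. Cdkn1a was at 118 to 187 in all 11.

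Endothelial cells carried the highest summed level of the 10 GTPases in each of the 11 libraries. The sum, in CPM (UMIs of a gene per 1000000 UMIs of the same library and lineage), had a median of 543 in endothelial cells (range 426 to 2072). T cells (250, range 210 to 300), mesenchymal cells (245, 187 to 488) and classical monocytes (224, 150 to 486) followed, with overlapping ranges among themselves. Interstitial macrophages (192) and NK cells (192) came next, then neutrophils (131), alveolar macrophages (122), B cells (117) and non-classical monocytes (79.9), where again each range overlapped that of its neighbour. Alveolar type 2 (AT2) cells, at 30.2, club cells, at 23.2, and erythroid cells, at 7.94, were lowest. The range of AT2 cells (25.5 to 83.7) overlapped that of non-classical monocytes (45.5 to 396). These are levels with no test between lineages, and all lineages of a library share its depth and its free RNA.

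**Figure D1:**
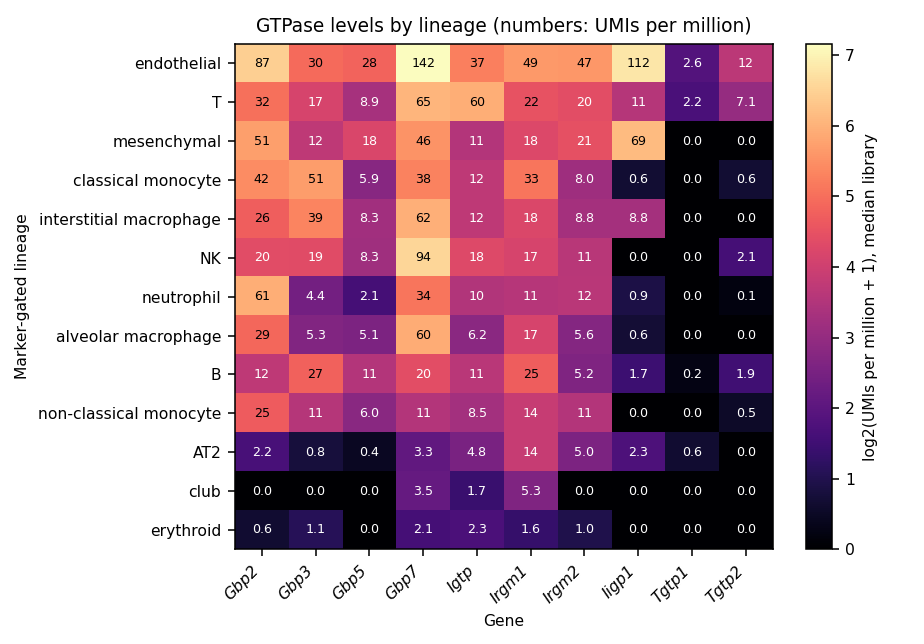
CPM of each GTPase gene (columns) in each of 13 marker-gated lineages (rows), as the median over libraries, with colour on a log2(CPM + 1) scale. Endothelial cells form the brightest row, with 142 for Gbp7, and AT2, club and erythroid cells the darkest.

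Gbp7, Irgm2 and Iigp1 were each highest in endothelial cells in 11 of 11 libraries. Iigp1, an effector of the immunity-related GTPases, was found mainly in 2 lineages: its median was 112 CPM in endothelial cells and 69.2 in mesenchymal cells, but 10.8 in T cells and under 10 in the other lineages. Its gene lies on chromosome 18 (60376027 to 60392634, plus strand). Gbp7 was spread more widely, with medians of 142 in endothelial cells, 93.7 in NK cells and 65.3 in T cells. Gbp2 was highest in endothelial cells in 8 of 11 libraries (median 87.0), with neutrophils next (60.9). Irgm1 was highest there in 10 of 11 libraries (48.7), ahead of classical monocytes (33.4) and B cells (25.3).

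Gbp5 and Tgtp2 were each highest in endothelial cells in 9 of 11 libraries, whereas Igtp and Gbp3 had their highest median elsewhere. Igtp was highest in T cells in 9 of 11 libraries, with a median of 60.4 CPM against 36.8 in endothelial cells, and the 2 exceptions were both p21mTertCD libraries. Gbp3 had its highest median in classical monocytes (51.1) and interstitial macrophages (39.1), with endothelial cells next (29.9). Tgtp1 and Tgtp2, whose 3′ reads cannot be told apart with certainty, had medians of 2.61 and 11.8 in endothelial cells and 2.23 and 7.14 in T cells.

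The make-up of the sum therefore differed between lineages. Iigp1 was 20.8% of the summed mean levels in endothelial cells and 30.3% in mesenchymal cells, against 0.473% in classical monocytes and 0.195% in NK cells. Igtp was 23.4% of the sum in T cells and 7.93% in endothelial cells. Gbp2 made up 44.7% in neutrophils, Gbp7 made up 48.8% in NK cells and 43.3% in alveolar macrophages, and Irgm1 made up 36.6% in AT2 cells, where the sum itself was low. Among leukocyte lineages interstitial macrophages had the highest share of Iigp1 (12.6%), but libraries there ran from 1.59% to 30.9% with a median of 5.50%, and the 12.6% rests mainly on p21mTertCD replicate 2 (90.7 CPM of Iigp1), p21Het replicate 3 (81.2), p21mTert replicate 3 (44.2) and p21mTertCD replicate 1 (40.8). The lineages differed in the gene that led.

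**Figure D2:**
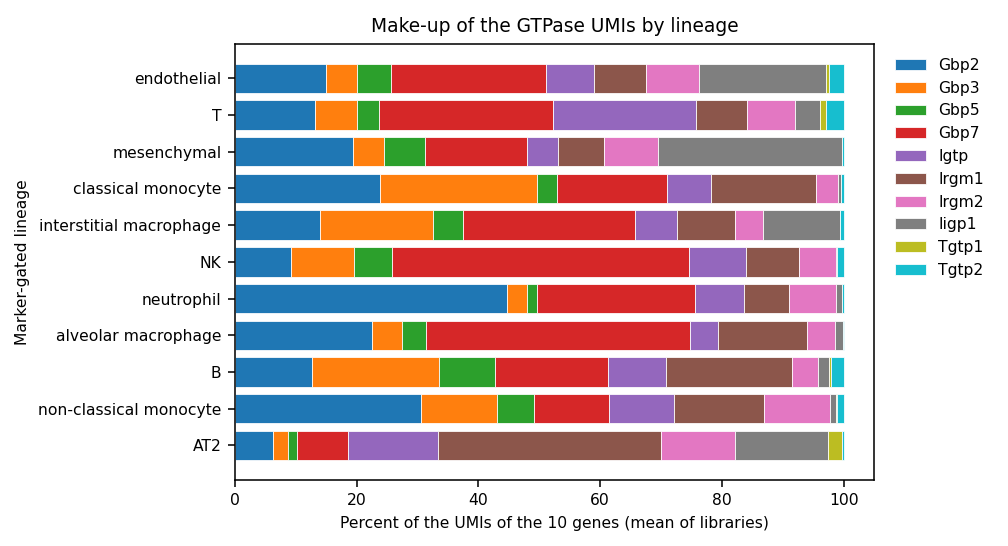
Share in percent of the summed level that each GTPase gene holds (stacked colours) in each lineage except club and erythroid cells, from the mean CPM over libraries. Iigp1 fills 20.8% of the endothelial and 30.3% of the mesenchymal bar and 0.195% of the NK bar, and Igtp fills 23.4% of the T-cell bar.

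The share of endothelial barcodes with at least 1 UMI of any of the 10 genes was taken after each barcode had been thinned to 1000 UMIs. It had a median of 36.0% over libraries, with 35.7% in WT (140 of 392 barcodes, exact 95% interval 31.0% to 40.7%), 34.8%, 31.0% and 38.1% in p21Het, and 38.8%, 27.8%, 36.0%, 36.6% and 34.8% in p21mTert. The p21mTertCD libraries had 72.4% (233 of 322, exact 95% interval 67.1% to 77.2%) and 45.2% (227 of 502, 40.8% to 49.7%), both above the other 9. Unthinned, the endothelial shares ran from 62.8% to 91.0%. Erythroid barcodes, which should lack these RNAs, had a median of 1.62% thinned, at median depths of 2476 to 5714 UMIs against 2747 to 4764 in endothelial cells. T cells had 21.3% thinned (range 18.1% to 24.3%). Intervals cover counting error only.

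In endothelial cells each of the 10 genes had a higher mean in p21mTertCD than in p21Het or p21mTert, and the p21mTertCD replicate 1 library was the highest of all 11 for every gene printed here. The regulatory GTPase Igtp was at 35.7 CPM in WT (exact 95% Poisson interval 26.9 to 46.5), 30.2, 36.5 and 28.9 in the p21Het libraries, 36.8, 25.1, 43.2, 38.8 and 41.2 in those of p21mTert, and 211 and 83.1 in those of p21mTertCD. Both p21mTertCD libraries were above the other 9, and the p21Het and p21mTert libraries overlapped. Irgm2, of the same class, was at 38.3 in WT, 38.5, 47.5 and 46.8 in the p21Het libraries, 35.6, 40.1, 51.9, 50.6 and 49.8 in those of p21mTert, and 169 and 99.4 in those of p21mTertCD. Irgm1 was at 48.7 in WT, 36.6, 39.6 and 46.1 in the p21Het libraries, 74.2, 42.4, 58.4, 47.9 and 60.2 in those of p21mTert, and 139 and 70.5 in those of p21mTertCD. For Irgm1 the lower p21mTertCD library fell within the p21mTert range, whereas for Irgm2 neither did.

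Among the effectors, Iigp1 was at 92.8 CPM in WT (78.2 to 109), 77.5, 85.7 and 122 in the p21Het libraries, 168, 84.8, 143, 84.7 and 112 in those of p21mTert, and 460 and 173 in those of p21mTertCD. The second p21mTertCD library lay just above the highest p21mTert library. Tgtp2 was at 9.74 in WT, 1.95, 9.25 and 8.95 in the p21Het libraries, 6.42, 17.0, 18.3, 13.8 and 11.9 in those of p21mTert, and 54.1 and 37.1 in those of p21mTertCD, with the doubt about Tgtp1 reads applying to each value.

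Of the guanylate-binding proteins, Gbp7 was at 142 CPM in WT (124 to 162), 149, 112 and 138 in the p21Het libraries, 129, 108, 135, 152 and 172 in those of p21mTert, and 483 and 239 in those of p21mTertCD. Gbp2 was at 87.0 in WT, 88.7, 77.3 and 77.8 in the p21Het libraries, 84.7, 62.2, 77.0, 93.5 and 108 in those of p21mTert, and 282 and 116 in those of p21mTertCD. For both genes the p21mTertCD libraries did not overlap the others, but the lower Gbp2 value was close to the highest p21mTert library. Gbp5, known for its link to inflammasome activation, was at 15.6 in WT, 19.0, 24.2 and 37.2 in the p21Het libraries, 42.6, 24.4, 33.0, 27.6 and 11.9 in those of p21mTert, and 155 and 33.0 in those of p21mTertCD. For Gbp5 the second p21mTertCD library lay inside both other groups. Gbp3 ranged from 18.0 to 37.2 in the other libraries and was at 107 and 37.1 in p21mTertCD, the second again inside the p21Het range.

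**Figure D3:**
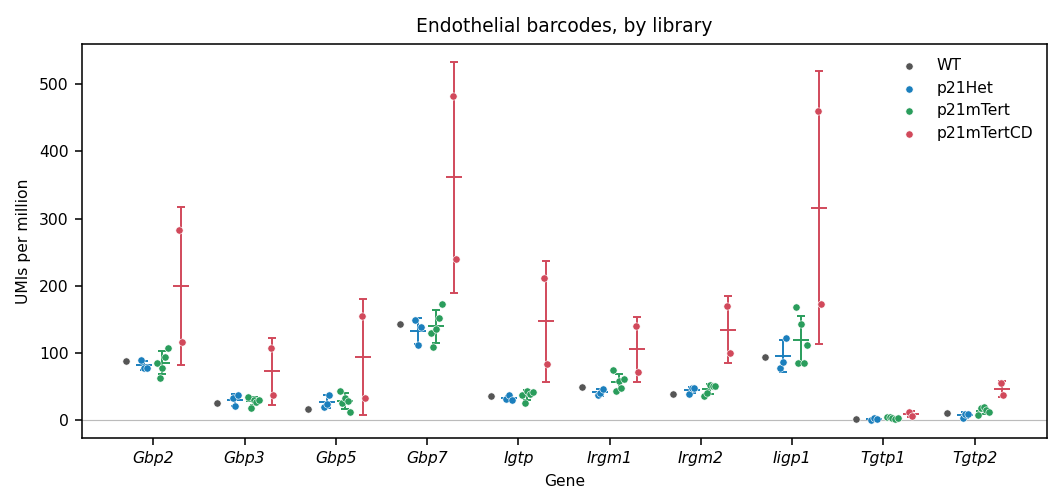
CPM in endothelial barcodes for the GTPase genes (along the horizontal axis) in each library (points), by genotype group, with the mean and SD of each replicated group. The upper p21mTertCD point is replicate 1 (Gbp7 at 483, Igtp at 211), and the p21Het and p21mTert points overlap for each gene.

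Counts were summed per library and lineage and tested across the 10 replicated libraries with edgeR's quasi-likelihood test, and a change was called at a Benjamini-Hochberg adjusted p under 0.05 over all genes. In endothelial cells no member passed in p21mTertCD against p21Het, a comparison in which 0 of 11163 genes did (0%). The fitted log2 difference was 2.24 ± 0.36 (SE) for Igtp (adjusted p = 0.126), 1.66 ± 0.27 for Irgm2 (0.126), 1.56 ± 0.26 for Gbp7 (0.133) and 2.72 ± 0.50 for Tgtp2 (0.145). It was 1.85 ± 0.40 for Iigp1 (0.269), and all 10 members had an unadjusted p under 0.05, as did 459 of the 11163 genes. In p21mTert against p21mTertCD, Igtp (-2.06 ± 0.31) and Irgm2 (-1.60 ± 0.23) had an adjusted p of 0.0563 and no member passed, where 1 gene in all did (0.00896%). DESeq2 called 6 members in endothelial cells in each of these comparisons, against 0.316% of all genes in the first and 0.377% in the second.

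The median over members was 1.75 on the log2 scale in p21mTertCD against p21Het, where the median over all genes tested was -0.0061. Both p21mTertCD libraries were above all p21Het libraries for 8 of the 10 members, as were 4.72% of all genes tested, and above all p21mTert libraries for 8 of 10, as were 3.74%. Without p21mTertCD replicate 1 the log2 difference from p21Het was 1.34 for Igtp, 1.15 for Irgm2, 0.88 for Iigp1, 0.87 for Gbp7, 0.51 for Gbp2 and 0.33 for Gbp5, and none passed. Without p21mTertCD replicate 2 it was 2.84 for Igtp (adjusted p = 0.000805, edgeR), and 8 members passed, as did 0.397% of all genes. In that fit p21mTertCD is replicate 1 alone.

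RNA of other cell types in the endothelial gate was measured in the same libraries. The summed level of 8 T-cell markers, none at 0 in all libraries, was 126 CPM in p21mTertCD replicate 1 and 27.3 in replicate 2, against 9.64 to 26.3 in p21Het, 16.6 to 82.3 in p21mTert and 23.4 in WT. The summed level of 8 alveolar macrophage markers was 1096 and 86.4 in p21mTertCD, 47.5 to 1241 in p21Het and 31.3 to 535 in p21mTert, and again no marker was at 0 throughout. Of these markers, Chil3 is also a marker of classical monocytes. The library p21Het replicate 2 held the highest level of those macrophage markers, 1241, with a GTPase sum of 454. The sum of the 10 genes in T cells themselves reached 300.1 in p21mTertCD replicate 1, against 2072 in its endothelial cells. The part of other cells' RNA in the endothelial result was not tested.

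In classical monocytes, the blood monocytes that enter inflamed tissue and become macrophages, 6 of the 7 members with enough counts to test were higher in p21mTertCD than in p21Het, against 0.865% of the 8557 genes tested there. Igtp was at 12.3 CPM in WT, 11.7, 6.27 and 9.47 in the p21Het libraries, 17.8, 9.48, 11.2, 17.3 and 13.6 in those of p21mTert, and 37.6 and 33.8 in those of p21mTertCD. The 2 p21mTertCD libraries were close to each other here and above the other 9, and the log2 difference from p21Het was 2.00 ± 0.25 (adjusted p = 0.000467, edgeR). Irgm1 was at 31.3 in WT, 37.0, 33.4 and 26.3 in the p21Het libraries, 25.8, 32.0, 25.2, 39.6 and 39.9 in those of p21mTert, and 80.7 and 56.8 in those of p21mTertCD (1.24 ± 0.22, adjusted p = 0.00984). Gbp3, which has its highest median level in these cells, was at 46.0 in WT, 39.8, 40.7 and 38.9 in the p21Het libraries, 33.7, 71.7, 72.7, 51.1 and 68.2 in those of p21mTert, and 98.4 and 76.2 in those of p21mTertCD (1.25 ± 0.25, adjusted p = 0.0279). The p21Het values of Gbp3 lay within 2 CPM of each other, and 4 of the 5 p21mTert values lay above them. Counts were low, as this gate held 34 to 360 barcodes per library. Igtp had 407 UMIs in it over the 11 libraries, with 20 in WT (exact 95% Poisson interval 7.49 to 18.9 CPM). Single CPM values are therefore less precise than their digits.

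Gbp5 (2.08 ± 0.44), Gbp2 (1.90 ± 0.42) and Gbp7 (1.14 ± 0.25) were also higher in classical monocytes of p21mTertCD, with adjusted p-values of 0.0359, 0.0434 and 0.0472 (edgeR). Of 17 alternative settings, 9 ended the call of Gbp5, 12 that of Gbp2 and 13 that of Gbp7, and DESeq2 was among those for Gbp2. The call of Gbp3 ended under 4 of them, that of Irgm1 under 3 and that of Igtp under none. Gbp2 was at 131 and 42.4 in the p21mTertCD libraries and at 20.1, 37.6 and 24.2 in p21Het, so the replicates of p21mTertCD were far apart. Irgm2 was the member that did not pass (1.19, adjusted p = 0.521). Both p21mTertCD libraries were above all p21Het libraries for 7 of 7 members (5.64% of all genes tested there) and above all p21mTert libraries for 3 of 7 (5.15%). Without p21mTertCD replicate 1, Igtp alone still passed (1.86, adjusted p = 0.0222, edgeR), with p21mTertCD replicate 2 as the single library of its group. Against p21mTert, Igtp alone was called (-1.37 ± 0.23 for p21mTert minus p21mTertCD, adjusted p = 0.0265, edgeR), where 0.129% of genes were. Of 17 alternative settings 6 ended this call, among them the loose gate and leaving out either p21mTertCD library. Without p21mTertCD replicate 1 the difference was -1.23.

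In non-classical monocytes, which patrol the vessel wall, 3 of 7 tested members were higher in p21mTertCD than in p21Het, against 0.51% of the 8624 genes tested there. Igtp was at 11.2 CPM in WT, 7.13, 5.96 and 8.51 in the p21Het libraries, 6.77, 9.58, 4.58, 6.83 and 9.38 in those of p21mTert, and 35.6 and 25.6 in those of p21mTertCD (2.13 ± 0.33 on the log2 scale, adjusted p = 0.00390, edgeR). Irgm1 was at 19.1 in WT, 8.31, 8.34 and 11.9 in the p21Het libraries, 9.67, 11.4, 13.8, 16.8 and 16.1 in those of p21mTert, and 41.1 and 26.2 in those of p21mTertCD (1.82 ± 0.30, adjusted p = 0.00667). Gbp3 was at 9.89 in WT, 4.75, 8.34 and 10.8 in the p21Het libraries, 6.77, 14.1, 7.86, 11.8 and 13.4 in those of p21mTert, and 41.1 and 25.0 in those of p21mTertCD (1.98 ± 0.36, adjusted p = 0.0161). For each of the 3 genes both p21mTertCD libraries were above the other 9. Counts were low here too, with 124 to 331 barcodes per library. Over the 11 libraries Igtp had 197 UMIs in this gate, Irgm1 276 and Gbp3 237.

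Against p21mTert the same 3 genes and Irgm2 were called in non-classical monocytes, 4 of 7 against 0.673% of all genes. The log2 difference of p21mTert minus p21mTertCD was -2.04 ± 0.29 for Igtp (adjusted p = 0.00211), -1.32 ± 0.26 for Irgm1 (0.0225), -1.58 ± 0.31 for Gbp3 (0.0234) and -1.27 ± 0.28 for Irgm2 (0.0486). Of 17 alternative settings 11 ended the call of Irgm2, DESeq2 among them. Both p21mTertCD libraries were above all p21Het libraries for 7 of 7 members (7.03% of all genes tested there) and above all p21mTert libraries for 5 of 7 (5.07%). Gbp2 and Gbp7 differed widely between the p21mTertCD libraries: Gbp2 was at 148 and 35.3 in p21mTertCD, and Gbp7 at 68.4 and 11.9, against 4.54 to 11.5 in p21Het. Without p21mTertCD replicate 1 no member was called in non-classical monocytes, where Igtp was then 1.83 above p21Het (adjusted p = 0.150).

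**Figure D4:**
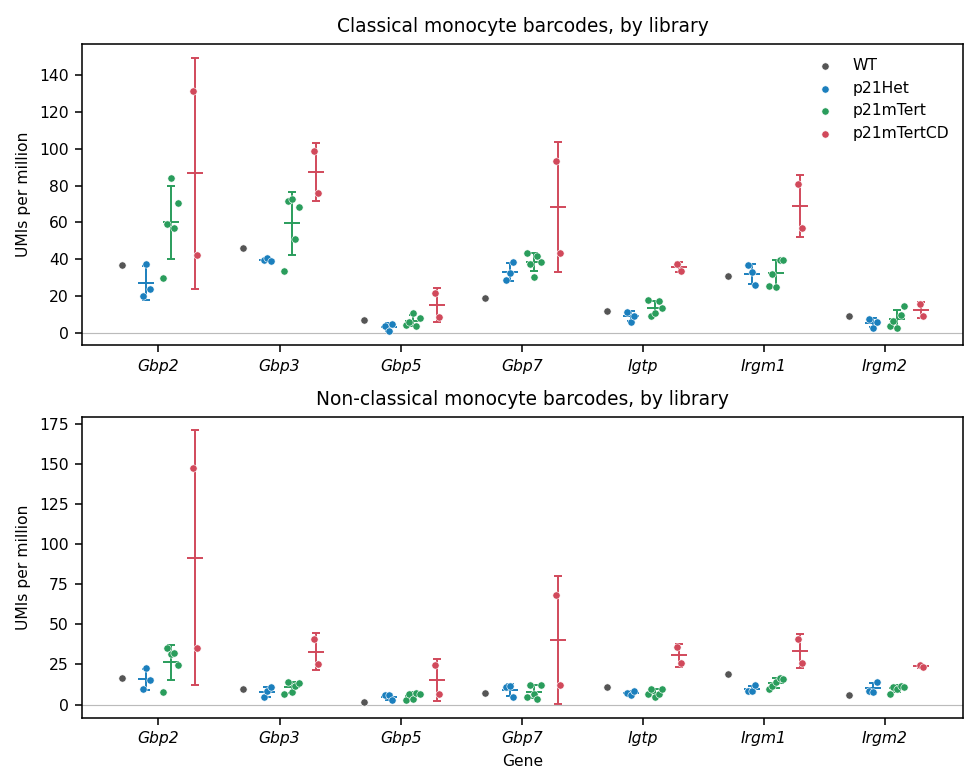
CPM in classical (upper panel) and in non-classical (lower panel) monocyte barcodes for GTPase genes (along the horizontal axis) in each library (points), by genotype group, with the mean and SD of each replicated group. Igtp in both p21mTertCD libraries lies above the other 9 in either monocyte class (37.6 and 33.8 in classical, 35.6 and 25.6 in non-classical monocytes).

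Markers of T cells in the classical monocyte gate summed to 19.3 and 14.0 CPM in p21mTertCD, against 3.51 to 9.36 in p21Het and 4.74 to 14.0 in p21mTert. In the non-classical gate they summed to 35.6 and 7.39, against 8.31 to 17.1 and 6.83 to 22.9. The alveolar macrophage markers were at 3136 and 789.9 in the classical gate of p21mTertCD, 1786 to 2645 in p21Het and 941.2 to 1978 in p21mTert, and none of the 8 markers of either list was at 0 throughout. Of the macrophage markers, Chil3 is also a marker of the classical monocyte gate itself. In the non-classical gate the alveolar macrophage markers were at 789.2 and 107.5 in p21mTertCD, 294.5 to 474.6 in p21Het and 72.5 to 456.5 in p21mTert. The 7 classical monocyte markers there summed to 1259 and 477.8 in p21mTertCD, against 558.1 to 674.8 in p21Het and 309.2 to 952.6 in p21mTert. Replicate 1 was thus above the other groups for both lists, but the lists share Chil3 and are not separate readings. Their part in the monocyte results was not tested.

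T cells, whose share was highest in p21mTertCD replicate 1, gave no call for these genes. Igtp in T cells was at 55.3 CPM in WT, 54.9, 52.9 and 65.3 in the p21Het libraries, 62.4, 52.2, 60.4, 60.9 and 68.3 in those of p21mTert, and 43.8 and 74.0 in those of p21mTertCD, which spanned all other libraries. Gbp7 was at 126 and 83.2 in p21mTertCD and at 65.3, 56.2 and 64.9 in p21Het (log2 difference 0.81 ± 0.17, adjusted p = 0.0996, edgeR, and 0.53, adjusted p = 0.394, without p21mTertCD replicate 1). The summed level of 8 NK markers in the T gate was 417 and 431 CPM in p21mTertCD, against 135 to 203 in p21Het and 196.8 to 301.5 in p21mTert, with no marker at 0 throughout, and its part in the Gbp7 values was not tested. In p21mTertCD against p21Het 4 of 10 members had an unadjusted p under 0.05, as did 1700 of 12492 genes. DESeq2 called Gbp7, against 2.53% of all genes, and the median over members was 0.38. The difference between endothelial and T cells of a library, on the log2(CPM + 1) scale, was 1.92 larger for Igtp and 1.93 larger for Iigp1 in p21mTertCD than in p21mTert. Each had p = 0.0476 in a two-sided exact permutation test, the smallest these groups allow, and an adjusted p of 0.0794 over the 10 members, so neither passed. Gbp2, Gbp7, Irgm2 and Tgtp2 had the same values in this exact test, and the other 4 members had p = 0.0952 (Gbp3), 0.143 (Tgtp1), 0.190 (Irgm1) and 0.333 (Gbp5). Against p21Het the smallest possible p is 0.1. This test was chosen after the values were seen.

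Neutrophils and mesenchymal cells gave no call. In neutrophils all 6 members tested had a log2 difference above 0 in p21mTertCD against p21Het (median 1.57) and 5 had an unadjusted p under 0.05, as did 309 of 7346 genes. Igtp was at 36.3 and 28.9 CPM in p21mTertCD neutrophils and at 6.67, 3.11 and 12.5 in p21Het (1.90 ± 0.40, adjusted p = 0.117, edgeR, and 1.69, adjusted p = 1.00, without p21mTertCD replicate 1), while DESeq2 called Igtp and Gbp7, against 0.331% of all genes. In mesenchymal cells Iigp1 was at 44.2 in WT, 45.4, 62.9 and 67.9 in the p21Het libraries, 83.2, 48.7, 109.8, 69.2 and 79.3 in those of p21mTert, and 196.8 and 105.1 in those of p21mTertCD. The second p21mTertCD library thus lay below the highest p21mTert library. In AT2 cells 6 members had enough counts to test and none was called, and in club and erythroid cells no member had enough.

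Over 82 member-by-lineage tests, p21mTertCD minus p21Het gave 9 calls, all higher and all in monocytes, with 78 of the 82 differences above 0. Of 111830 gene-by-lineage tests, 0.115% were called. For p21mTert minus p21mTertCD there were 5 calls, all lower in p21mTert, against 0.0903%. Without p21mTertCD replicate 1 they came to 1 and 0. These comparisons share the p21mTertCD libraries. Gbp7 and Irgm1 could be tested in 11 of 13 lineages, Gbp2, Gbp3, Igtp and Irgm2 in 10, Gbp5 in 8, Iigp1 in 7, Tgtp2 in 3 and Tgtp1 in 2, so an untested member says nothing of change.

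No member was called between p21mTert and p21Het. Within lineages 0 of 82 tests passed (0.0277% of all tests did), 7 had an unadjusted p under 0.05 (5962 of the 111830 tests of all genes did), DESeq2 called 0 against 0.124% of all tests, and 61 differences were above 0. The difference with the lowest unadjusted p was that of Gbp2 in interstitial macrophages, at a mean of 37.8 CPM in p21mTert and 13.3 in p21Het (1.47 ± 0.35, adjusted p = 1.00, edgeR). In classical monocytes all 7 members tested were above 0, with a median of 0.61, and Gbp2 was at 29.7, 59.3, 83.8, 56.9 and 70.3 in p21mTert against 20.1, 37.6 and 24.2 in p21Het (1.21 ± 0.39, adjusted p = 0.582). In endothelial cells the median over members was 0.14, and the means ± SD of Gbp7 were 139 ± 24.2 (n = 5) in p21mTert and 133 ± 19.2 (n = 3) in p21Het.

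**Figure D5:**
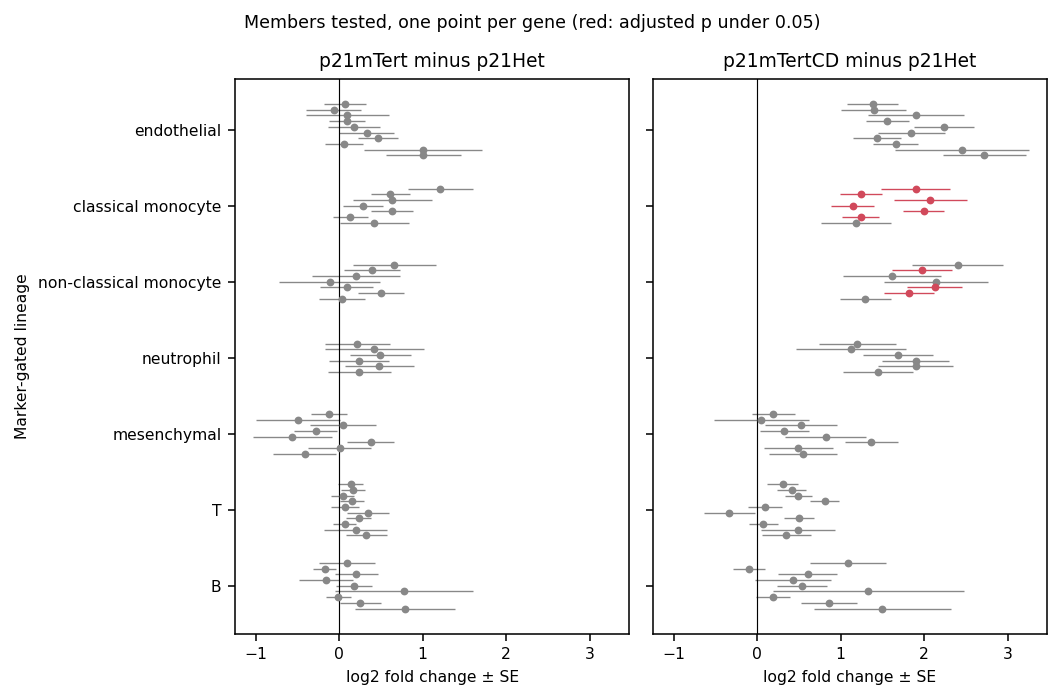
Log2 difference ± SE of each tested GTPase gene (points) for p21mTert minus p21Het and p21mTertCD minus p21Het, from edgeR. The lineages shown are endothelial cells, classical and non-classical monocytes, neutrophils, mesenchymal cells, T cells and B cells. Red points passed an adjusted p of 0.05. The 9 red points of p21mTertCD minus p21Het are all in monocytes, and p21mTert minus p21Het has none.

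Over all kept barcodes the sum of the 10 genes was 143 CPM in WT, 137, 147 and 167 in the p21Het libraries, 174, 153, 179, 175 and 173 in those of p21mTert, and 315 and 234 in those of p21mTertCD. In such a sum a larger share of the cells that express a gene and more RNA per cell cannot be told apart. Of p21mTertCD minus p21Het, 0 of 10 members passed (0.12% of 17503 genes did), 10 had an unadjusted p under 0.05 (1095 genes did), DESeq2 called 5 against 1.07% of all genes, and the median over members was 0.93 against -0.0305 over all genes. Igtp had the lowest adjusted p (0.99 ± 0.18, adjusted p = 0.103, edgeR), and was at 1.05 with an adjusted p of 0.384 without p21mTertCD replicate 1. Both p21mTertCD libraries were above all p21Het libraries for 10 of 10 members (6.72% of genes) and above all p21mTert libraries for 8 of 10 (4.28%). Of p21mTert minus p21mTertCD, 0 of 10 members passed (0.00571% of genes did), 8 had an unadjusted p under 0.05 (2812 genes did) and DESeq2 called 5 against 3.805% of all genes. Of p21mTert minus p21Het, 0 passed (0.0114%), 1 had an unadjusted p under 0.05 (Tgtp2, 0.81, adjusted p = 0.672), as did 1268 genes, and DESeq2 called 0 against 0.178% of all genes.

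The pathway above the GTPases was read from gene lists. The ligand gene Ifng in T cells was at 33.5 CPM in WT, 29.4, 19.9 and 10.2 in the p21Het libraries, 42.8, 31.6, 57.6, 29.5 and 45.5 in those of p21mTert, and 90.5 and 29.4 in those of p21mTertCD (p21mTertCD minus p21Het 1.67 ± 0.46, adjusted p = 0.181, edgeR, and 0.70, adjusted p = 0.671, without p21mTertCD replicate 1). The high library was p21mTertCD replicate 1, and replicate 2 was level with the highest p21Het library and just below the lowest p21mTert library. In the fits without p21mTertCD replicate 1, Ifng in p21mTert minus p21Het was at 1.09 in T cells and -0.90 in NK cells. For p21mTertCD minus p21Het it was then 0.71 in NK cells. Endothelial cells held 12 Ifng UMIs in all libraries together. The receptor genes did not pass in endothelial cells: Ifngr1 was at 178 to 260 CPM over the 11 libraries and Ifngr2 at 49.2 to 76.5.

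Of the list of transcription factors and feedback genes, 3 of 10 tested were higher in classical monocytes of p21mTertCD than of p21Het (Irf1, Nlrc5 and Stat2, of which Nlrc5 drives MHC class I genes) and 1 of 10 in non-classical monocytes (Irf8). Of all genes 0.865% and 0.51% were called in these fits, which is the background for each list count of p21mTertCD against p21Het in monocytes. Targets typical of interferon-gamma had 3 of 12 and 3 of 13 higher, in both cases Psmb8 and Psmb9, subunits of the immunoproteasome, and Tap1, the peptide transporter. Targets typical of type I interferon had 8 of 14 higher in classical monocytes (Cmpk2, Ifit2, Irf7, Isg15, Oasl2, Rsad2, Rtp4 and Xaf1) and 7 of 12 in non-classical monocytes (the same without Ifit2). These counts come from fits with both p21mTertCD libraries. The monocyte calls of the transcription factors and of the interferon-gamma targets rested on p21mTertCD replicate 1, and those of the type I targets did so in part. Isg15, a ubiquitin-like protein, was at 132.4 in WT, 107.7, 55.4 and 66.8 in the p21Het libraries, 155.2, 171.9, 109.0, 120.3 and 165.7 in those of p21mTert, and 297.6 and 258.8 in those of p21mTertCD classical monocytes (1.93 ± 0.23, adjusted p = 0.000436, edgeR). Without p21mTertCD replicate 1, Isg15 was 1.78 above p21Het on the log2 scale in classical monocytes and 1.43 in non-classical monocytes. Igtp, a member of the GTPases, was then 1.86 and 1.83 above p21Het in the same fits. In these fits p21mTertCD is replicate 2 alone, so these values give the size of a difference only. Neither Isg15 nor Igtp kept its call in non-classical monocytes. The chemokine gene Cxcl9 was at 67.8 in classical monocytes of p21mTertCD replicate 1 and listed at 0 in replicate 2.

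In p21mTert minus p21mTertCD, 6 of 12 type I targets (Irf7, Isg15, Oasl2, Rsad2, Rtp4 and Xaf1) and 4 of 13 interferon-gamma targets (Cd74, H2-Ab1, Psmb8 and Tap1) were lower in non-classical monocytes, and 1 of 14 (Oasl2) and 1 of 12 (Tap1) in classical monocytes, where 0.673% and 0.129% of all genes were called. Cxcl10, a chemokine gene, was lower in mesenchymal cells (-2.84, adjusted p = 0.0256, edgeR), and at -3.05 with an adjusted p of 0.0522 without p21mTertCD replicate 1. Without that library none of these targets was called in monocytes in this comparison. Outside monocytes, Rtp4 in neutrophils and Xaf1 in T cells were higher in p21mTertCD than in p21Het, and Rtp4 in neutrophils and Irf8 in AT2 cells were lower in p21mTert than in p21mTertCD. Without p21mTertCD replicate 1 only Irf8 in AT2 cells of these was called, while Usp18, a brake on type I signalling, was called in T cells in both comparisons with p21mTertCD. In p21mTert minus p21Het no gene of these lists was called in any lineage or over all kept barcodes. Of 16 genes for partners of the GTPases at vacuoles, 1 (Rnf213) was higher in p21mTertCD than in p21Het in either monocyte class, and in classical monocytes also without p21mTertCD replicate 1. Rnf213 and Irf8 were also lower in non-classical monocytes of p21mTert than of p21mTertCD, and neither without that library. No gene of the list of type I and III interferon ligands and receptors was called in any comparison.

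Other interferon-inducible GTPases of the lung were read beside the 10. Gbp4 was at 81.8 CPM in WT, 104.3, 72.8 and 90.2 in the p21Het libraries, 65.4, 62.2, 91.7, 88.1 and 89.1 in those of p21mTert, and 410.2 and 136.1 in those of p21mTertCD endothelial cells. Over all kept barcodes it was higher in p21mTertCD than in p21Het (0.93 ± 0.14, adjusted p = 0.0447, edgeR), the 1 of 14 such genes tested that passed (0.12% of all genes did), and did not pass without p21mTertCD replicate 1 (0.87, adjusted p = 0.309). Gvin1, a very large interferon-inducible GTPase, was higher in classical monocytes of p21mTertCD than of p21Het, 1 of 5 tested, and was not called without p21mTertCD replicate 1.

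The genes with patterns most like those of the 10 were ranked by Pearson correlation with the mean of their standardised levels. Over the 13 lineages, among 12077 genes, the nearest were Slc39a6 (r = 0.929), Rad52 (0.910) and Riox1 (0.899), followed by Cenpj, Arl15, Trim21, Tpgs2, Lrch3, Brd9 and Acap3 (0.882). Over the 11 libraries, among 9889 genes in all kept barcodes, the 10 nearest included Themis (0.957), Psme1 (0.948), Cd6, Cd3e, Mcm6, Leprotl1 and Etaa1 (0.918). Themis, Cd6 and Cd3e are T-cell genes, and the libraries differ in their T-cell share as given above. Points over lineages share libraries and depth, so these are descriptions.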

How the data were processed

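Whole-lung cells were measured in 11 droplet 3′ single-cell libraries. The deposited matrices hold raw UMI counts per gene and barcode, made by the authors with Cell Ranger on mm10, per the labels and the series' design text. Its version is not used here because the sources differ. UMIs were summed per library, over kept barcodes and over 13 marker-gated lineages (at least 20 barcodes per library and, in the main fits, 2 libraries per group), and scaled to CPM, UMIs per 1000000. No doublet caller was run, and the gate dropped barcodes in which no lineage led by 2 markers, so barcodes with some markers of another lineage remained. Sums of the 10 replicated libraries were tested with edgeR 4.0.16 (R 4.3.3; filterByExpr, TMM, quasi-likelihood), with DESeq2 1.42.0 among the alternatives, and the fits were tested on simulated data. In simulated endothelial sums, 56.5% of 2-fold and 95% of 4-fold changes were recovered for p21mTertCD minus p21Het. Of 2-fold changes, 71% were recovered for p21mTert minus p21mTertCD and 77.5% for p21mTert minus p21Het. The counting rule, depth and gates are as given in the text above, and precision is that of the UMI counts. The 10 members and all gene lists were chosen with earlier results of these data known. Named genes were the members, Ifng, Ifngr1, Ifngr2, Irf1, Cxcl9, Cxcl10, Isg15, list genes that were called and the 10 most alike, of which some are not reported here. Values of Gbp4 were chosen because it was called. Cxcl11, Gbp11, Gm12187 and Mx2 were listed but matched no gene symbol. Alternatives were other size factors, DESeq2, no filter on low counts, left-out libraries, a replicate block, a term for the 3 libraries of the design text, the other libraries alone, all deposited barcodes and other gates. Fits without a p21mTertCD library, and the strict gate in endothelial cells, have groups of 1 library, whose spread is assumed to be like that of the others. Coordinates and overlaps come from GENCODE M21, and promoters from RefSeq.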

Additional observations from a re-analysis of the deposited data

Results flagged for a closer look

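In 6 of 124 groups of p21mTert libraries tested, 1 library lay far from the other 4 (gap to the nearest over the group's range above Dixon's 95% limit), where chance flags about 1 in 20 groups. In AT2 cells, p21mTert replicate 1 had 15.5 CPM of Igtp (next library 5.45) and 31.1 of Iigp1 (next 2.59). The same library had 12.95 of Irgm2 in alveolar macrophages (next 6.89). Iigp1 in interstitial macrophages was at 44.2 in p21mTert replicate 3 (next 11.3), and Gbp3 in neutrophils at 11.2 in p21mTert replicate 5 (next 4.62). Ifngr1 over all kept barcodes was lowest, at 230 CPM, in p21mTert replicate 3 (next 302.5).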

How the results depend on the processing

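Numbers of members called depended on the settings. Within lineages, p21mTertCD minus p21Het gave 9 calls, and 17 with DESeq2 (0.464% of all genes' tests were called), 30 with no filter on low counts (0.382%), 0 with the strict gate (at least 4 markers and at most 1 of any other lineage; 0.116%) and 1 to 20 with 1 library left out (1 without p21mTertCD replicate 1, against 0.0411%, 20 without replicate 2, against 0.944%, 5 without p21Het replicate 1 or 3). For p21mTert minus p21mTertCD it gave 5, and 12 (0.477%), 30 (0.485%), 0 (0.0551%) and 0 to 16 in the same order (0 and 16 without p21mTertCD replicate 1 and 2, against 0.0468% and 0.904%, and 2 or 3 without p21mTert replicate 2, 3, 4 or 5). For p21mTert minus p21Het, no filter gave 3 (0.412%) in place of 0. Over all kept barcodes, DESeq2 gave 5 in place of 0 in each comparison with p21mTertCD, and leaving out 1 library gave 0 to 2 for p21mTert minus p21mTertCD (2 without p21mTertCD replicate 2, against 0.767% of genes) and 0 to 1 for p21mTertCD minus p21Het (1 without p21Het replicate 3 or p21mTertCD replicate 2, against 0.487% and 0.539%). The cause was not tested, except that the strict gate could not be fitted in 9 lineages, both monocyte classes among them. In endothelial cells it left 7 libraries, the 5 of p21mTert and 1 each of p21Het (replicate 1) and p21mTertCD (replicate 2), since replicate 1 of p21mTertCD kept 16 barcodes, and Gbp7 in p21mTert minus p21mTertCD reversed to 0.058.

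Correlations between same-numbered libraries of different groups, each taken against its group mean, ran from -0.495 to 0.287 over 7 pairs. The 2 p21mTertCD libraries mirror each other around their mean, so their values differ in sign only. This check therefore cannot show or exclude a pairing by replicate number. A replicate block gave 2 calls in place of 9, both among the 9 (0.0537% of all genes' tests were called), and 1 in place of 5, none of the 5 (Iigp1 in interstitial macrophages; 0.0358%). Of 284 alternative values of the endothelial fold changes, 241 kept their side of the threshold and their direction, 42 newly passed and 1 reversed. Of 238 for monocytes, 165 kept both and 73 no longer passed. Of those fold changes Igtp in classical monocytes, p21mTertCD minus p21Het, passed under each of its 17 alternatives (1.86 to 2.15). Endothelial cells stayed first among 13 lineages under the loose gate and after thinning. Under the strict gate they were first of the 4 lineages with enough barcodes (endothelial, T, B and erythroid), so mesenchymal cells and monocytes were not compared. A term for the 3 libraries of the design text gave 6 and 7 calls (0.126% and 0.129%), the other libraries alone 6 and 4 (0.130% and 0.0890%). With 2 p21mTertCD libraries the spread of that group is poorly known.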
